A study of Mus musculus with 16 samples.

Results

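The 36 genes described here drive cell division and copy DNA. They were chosen by name, and their symbols were matched to the identifiers of the deposited liver count table. All 36 were found among its 46078 genes. The set holds the proliferation marker Mki67 with the topoisomerase Top2a, 7 genes for cyclins and a cyclin-dependent kinase (Ccnd1, Ccne1, Ccne2, Ccna2, Ccnb1, Ccnb2 and Cdk1), and 2 for proteins that restrain such kinases (Cdkn1a and Cdkn3). A further 8 belong to S-phase transcription, origin licensing and the replicative helicase (E2f1, Cdt1, Mcm2, Mcm3, Mcm4, Mcm5, Mcm6 and Mcm7), and 4 to the replication fork and the supply of deoxynucleotides (Pcna, Rrm1, Rrm2 and Tyms). The last roles are mitotic kinases, checkpoint and exit, with 7 genes (Aurka, Aurkb, Plk1, Bub1, Bub1b, Cdc20 and Birc5), and the spindle and kinetochore, with 6 (Cenpe, Cenpf, Kif11, Kif20a, Nusap1 and Tpx2).

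Livers came from C57BL/6 mice aged 22 weeks in which diet had induced obesity with hepatic steatosis, a state that all groups share. The 4 groups had 4 libraries each. Dicretin is a co-agonist at the receptors for glucagon-like peptide-1 and glucagon, and Semaglutide is an agonist at the receptor for glucagon-like peptide-1. The calorie-restricted mice were brought to an equivalent loss of weight by diet, and the saline mice received vehicle. Dose, route, duration and sex are not given in the sources used here. Libraries are called by their group and the number in their title. The labels do not state that each is a separate animal, so p-values measure the spread between these libraries. The design asks how each treatment differs from vehicle, and how the drugs differ from weight loss without a drug.

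A cell leaves rest when D-type cyclins with their kinases release E2F factors from the retinoblastoma protein, and cyclin E completes that step. E2F target genes then build the MCM helicase, the sliding clamp and the deoxynucleotide supply for S phase, and a later wave of genes serves mitosis. Most hepatocytes of an adult liver rest, and many are polyploid, so transcripts of the mitotic wave are scarce there unless tissue has been lost.

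The promoter windows of 5 members show the letters by which these waves are often told apart, and stand here for genes with unlike measurements below. Mki67, Ccnb2 and Cdk1 are mitotic-wave genes that were each highest in the same Dicretin library. Of these, Cdk1 also lay above all saline libraries in every Dicretin library. Mcm6 is a helicase gene that was lower after Dicretin, and Pcna was higher in every Dicretin library. Each window is the RefSeq sequence of GRCm38.p6 from 250 bases before to 50 after the annotated start, printed 5′ to 3′ on the strand of the gene. Capitals mark matches, on either strand, to the CHR letters TTTGAA, to the CCAAT box, or to the E2F letters TTTNNCGC. The windows lie on the minus strand at chr7:135716330-135716629 (Mki67), chr9:70421505-70421804 (Ccnb2), chr10:69352863-69353162 (Cdk1), chr1:128359656-128359955 (Mcm6) and chr2:132253131-132253430 (Pcna).
Mki67: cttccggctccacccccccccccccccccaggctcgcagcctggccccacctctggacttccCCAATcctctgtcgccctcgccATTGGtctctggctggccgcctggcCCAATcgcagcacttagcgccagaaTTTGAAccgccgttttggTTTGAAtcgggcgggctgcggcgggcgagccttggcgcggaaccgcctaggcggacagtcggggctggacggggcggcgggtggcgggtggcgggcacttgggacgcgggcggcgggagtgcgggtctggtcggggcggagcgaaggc
Ccnb2: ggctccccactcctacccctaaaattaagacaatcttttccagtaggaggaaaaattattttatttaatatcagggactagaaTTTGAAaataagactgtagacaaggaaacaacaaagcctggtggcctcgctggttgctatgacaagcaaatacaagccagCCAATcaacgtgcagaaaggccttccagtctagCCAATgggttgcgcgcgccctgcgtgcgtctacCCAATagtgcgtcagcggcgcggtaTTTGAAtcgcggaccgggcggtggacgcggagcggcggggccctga
Cdk1: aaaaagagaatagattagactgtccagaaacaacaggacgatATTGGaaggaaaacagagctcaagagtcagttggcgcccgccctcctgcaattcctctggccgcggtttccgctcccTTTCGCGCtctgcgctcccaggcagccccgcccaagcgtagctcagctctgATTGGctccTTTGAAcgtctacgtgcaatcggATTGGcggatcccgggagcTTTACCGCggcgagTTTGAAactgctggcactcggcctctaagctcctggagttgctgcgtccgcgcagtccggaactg
Mcm6: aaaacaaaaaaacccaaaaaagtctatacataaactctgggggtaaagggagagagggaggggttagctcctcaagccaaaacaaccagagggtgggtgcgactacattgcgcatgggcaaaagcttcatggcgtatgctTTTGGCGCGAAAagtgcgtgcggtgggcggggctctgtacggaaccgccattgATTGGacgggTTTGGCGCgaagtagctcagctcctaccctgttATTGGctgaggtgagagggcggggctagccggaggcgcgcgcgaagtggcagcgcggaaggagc
Pcna: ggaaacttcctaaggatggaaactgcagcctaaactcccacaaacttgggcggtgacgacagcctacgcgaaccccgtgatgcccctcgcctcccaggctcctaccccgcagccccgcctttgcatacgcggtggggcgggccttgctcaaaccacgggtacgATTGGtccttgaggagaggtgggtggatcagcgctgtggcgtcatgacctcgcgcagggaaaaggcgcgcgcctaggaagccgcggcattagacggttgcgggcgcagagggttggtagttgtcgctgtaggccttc
The window of Mki67 held 2 CHR and 3 CCAAT matches, that of Ccnb2 likewise 2 and 3, and that of Cdk1 2 CHR, 3 CCAAT and 2 E2F matches. Mcm6 held 2 CCAAT and 3 E2F matches, of which a pair overlap on opposite strands, and Pcna held 1 CCAAT match. A window was found for 29 of the 36 members. CHR letters stood in 12 of these 29 genes (41.4%) against 20.2% of 26994 genes with a window, CCAAT in 22 (75.9%) against 41.0%, and the E2F letters in 7 (24.1%) against 5.92%. Among the 10 mitotic and spindle members with a window, 6 held CHR letters and 0 the E2F letters. Among the 7 with a window in the S-phase, licensing and helicase group, 1 held CHR letters and 5 the E2F letters. These are matches of letters in a fixed window and say nothing of binding.

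Counts assigned to genes totalled 12.144 to 18.755 M per library. Levels are in CPM, counts per 1 M counts of the TMM-normalized total of the library, log2 fold changes are given ± SE, and a gene counts as called at a Benjamini-Hochberg adjusted p under 0.05 from edgeR's quasi-likelihood test over 12910 genes. In these bulk livers, fewer cells of a type and less RNA per cell cannot be told apart. A count of 0 allows up to 3 counts, which is 0.157 to 0.26 CPM depending on the library, and covers counting error only. Of the 36 members, 26 passed the filter on low counts. The other 10 (Ccnb1, Ccnb2, Cdkn3, Aurkb, Plk1, Bub1, Cdc20, Cenpe, Cenpf and Tpx2) did not, and all of them act in mitosis or restrain its kinase. Per kilobase of exon, the saline mean ran from 0.0166 CPM for Bub1 to 16.7 CPM for Pcna. Next after Pcna on that scale came Ccnd1 at 3.59, Tyms at 2.29 and Mcm7 at 2.23 CPM per kilobase.

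A single library, Dicretin 14, stands apart in these genes and touches most results on the Dicretin group. It had the highest CPM of all 16 libraries for 24 of the 36 members, and for 14 of the 26 tested ones (53.8%). Over all genes with a count, this library was the highest in 10.8%, and over all tested genes in 15.5%. Saline 50 came next with 4 of the 36 members. By role, Dicretin 14 was the highest of 16 for both Mki67 and Top2a, for 7 of 7 mitotic kinases and checkpoint genes, for 6 of 6 spindle genes and for 5 of 7 cyclins and Cdk1. It was the highest for 2 of 8 S-phase and helicase genes and for 1 of 4 fork genes. Against the mean of the other Dicretin libraries it was over 2-fold higher for 28 of the 36 members. These were 18 of the 26 tested members and all 10 untested ones, which had few counts in the other Dicretin libraries. The share over all genes was not computed for this rule, so the count has no background. The total of Dicretin 14, 16.66 M counts, lies inside the range of the rest. Its TMM factor was the highest of the 16 libraries, at 1.122, against 0.9435 to 0.958 in the other Dicretin libraries. Tests of members in Dicretin comparisons are therefore given with and without Dicretin 14. The library was singled out by the levels of these same members. P-values without it thus describe the other libraries and are not separate support.

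**Figure D1:**
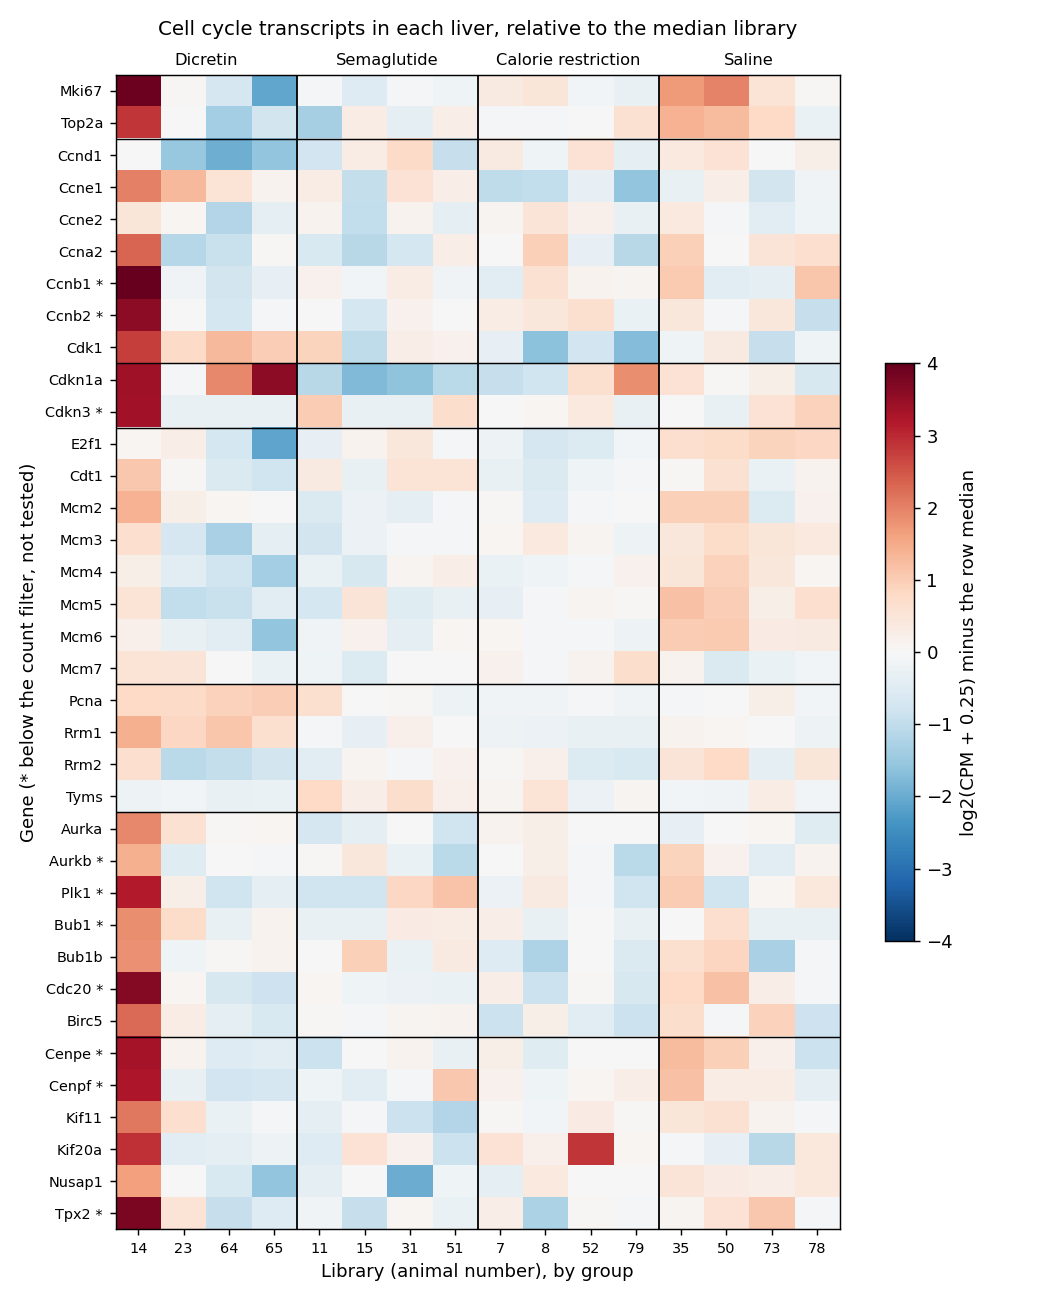
Level of each of the 36 members (rows, by role) in each of the 16 libraries (columns, by group), drawn as log2 of CPM plus 0.25, less the median of the gene over all libraries, with the colour scale limited to 4 in either direction. Asterisks mark genes below the count filter. Dicretin 14 is high through the cyclin, mitotic and spindle rows, while the other Dicretin libraries are low in many helicase rows and high for Pcna and Rrm1.

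Against saline, Dicretin changed 11 of the 26 tested members, 6 higher and 5 lower. Over all 12910 genes this comparison called 36.7%, of which 17.5% were higher and 19.2% lower, so the members' share lies near the background. Cdk1, Ccne1, Cdkn1a, Aurka, Rrm1 and Pcna rose, and Ccnd1, E2f1, Mcm4, Mcm5 and Mcm6 fell. The median log2 fold change was 0.35 over the tested members and -0.01 over all genes. All Dicretin libraries lay above all saline libraries for 3 members and below them for 2, while over all genes the groups did not overlap in that way for 15.7% and 18.5%. Without Dicretin 14 the comparison called 13 members, 4 higher and 9 lower, with 36.8% of all genes called in either direction. That share is not split by direction here.

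Mki67 encodes a chromosome-coating protein found in cycling cells. It stood at 15.8, 0.824, 0.406 and 0 CPM in Dicretin 14, 23, 64 and 65, and at 3.20, 3.90, 1.29 and 0.827 CPM in saline 35, 50, 73 and 78. Dicretin 14 exceeded every saline library, while the other Dicretin libraries lay below all of them. For Dicretin 23 that gap to saline 78 was within counting error, at 0.8242 and 0.8271 CPM from 13 and 10 counts. The log2 fold change was 0.90 ± 0.95 (adjusted p = 0.486 by edgeR), and -2.39 ± 0.65 (adjusted p = 0.00778) without Dicretin 14. Top2a, the topoisomerase that untangles replicated chromosomes, was likewise highest in Dicretin 14, with 6.91, 0.761, 0.136 and 0.346 CPM after Dicretin and 2.36, 2.15, 1.5 and 0.579 CPM after saline. Dicretin 64 and 65 lay below all saline libraries, and Dicretin 23 inside their range. The groups gave 0.33 ± 0.76 on the log2 scale (edgeR adjusted p = 0.761), and -1.95 ± 0.62 (adjusted p = 0.0194) without that library. So for both genes the direction of the group rests on 1 library.

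**Figure D2:**
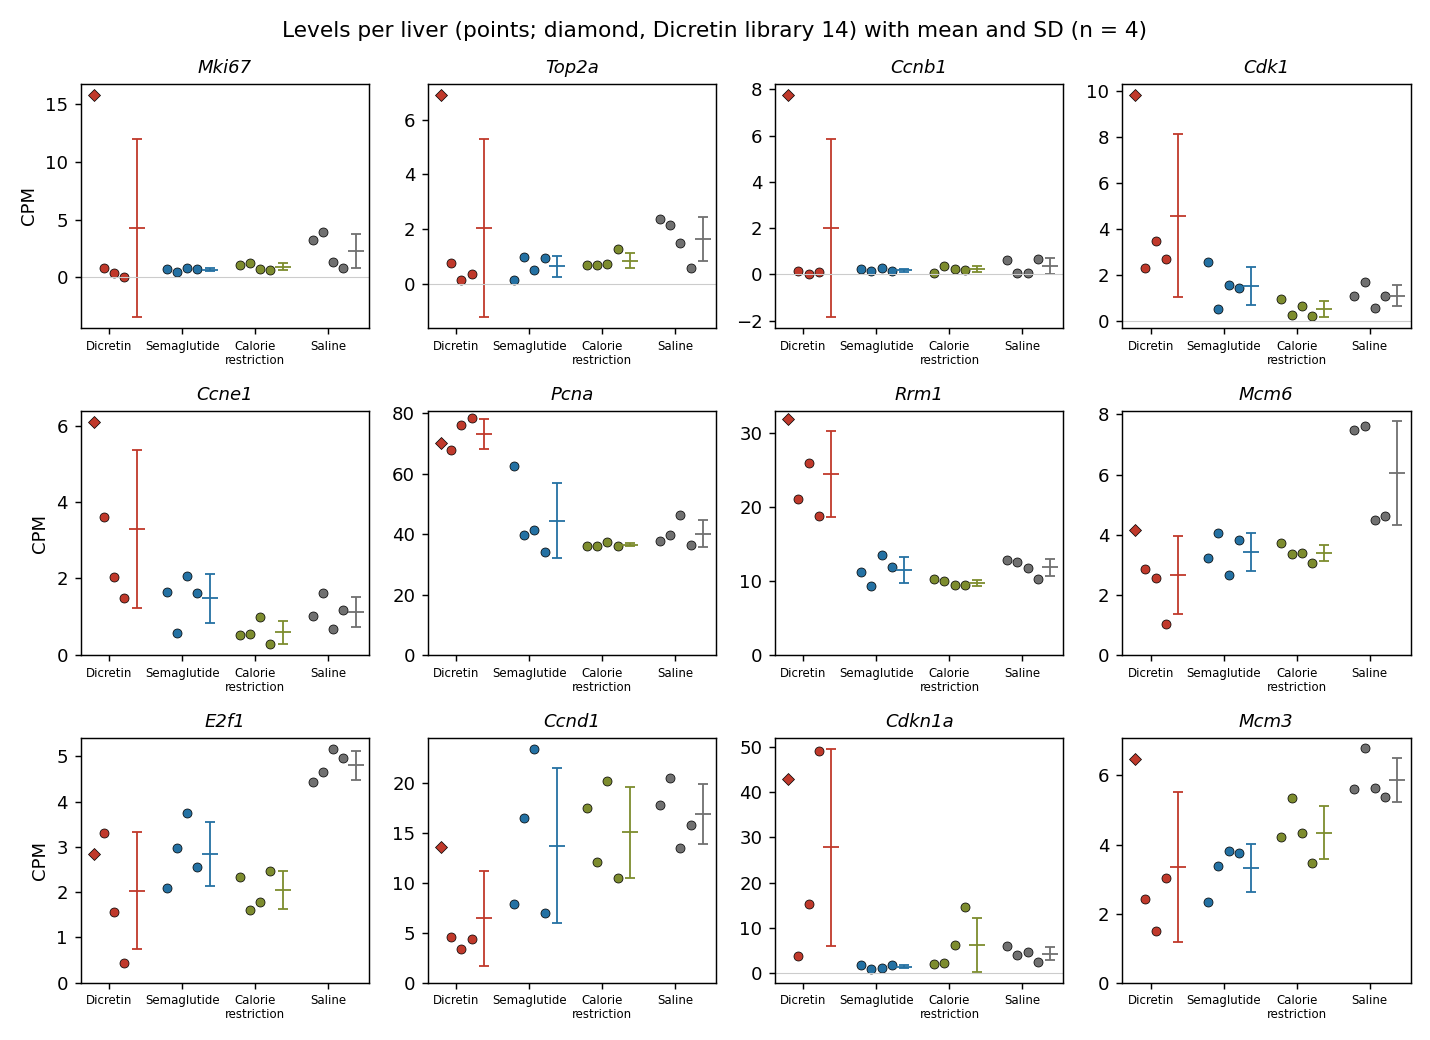
CPM of selected members in each library (points), with the mean and SD of each group of 4 beside them as a line with whiskers; the diamond is Dicretin 14. Pcna and Rrm1 are high in all 4 Dicretin libraries, whereas among those libraries Mki67, Top2a and Ccnb1 are high in Dicretin 14 alone.

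Among the cyclins, Ccnd1 encodes cyclin D1, which carries mitogen signals into the cycle. It stood at 13.6, 4.57, 3.32 and 4.33 CPM in Dicretin 14, 23, 64 and 65, against 17.8, 20.5, 13.5 and 15.8 CPM in the saline libraries. The gene fell with a log2 fold change of -1.37 ± 0.41 (edgeR adjusted p = 0.0146), and by more without Dicretin 14, at -2.04 ± 0.37 (adjusted p = 0.000387). That library alone reached the saline range, and the call is lost when Dicretin 23 is left out (adjusted p = 0.0504). In the annotation, 23.4% of the exon bases of Ccnd1 overlap a gene on the opposite strand. Ccne1, the cyclin E of the entry into S phase, went the other way. It measured 6.11, 3.61, 2.03 and 1.47 CPM after Dicretin and 1.01, 1.63, 0.680 and 1.16 CPM after saline, so only Dicretin 65 lay inside the saline range. The resulting log2 fold change was 1.57 ± 0.47 (edgeR adjusted p = 0.0134), and 1.10 ± 0.46 (adjusted p = 0.0703) without Dicretin 14.

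Cdk1, the kinase that starts mitosis, rose in every Dicretin library. Values were 9.86, 2.28, 3.46 and 2.69 CPM, against 1.07, 1.69, 0.544 and 1.07 CPM after saline, and the groups did not overlap. The log2 fold change was 2.06 ± 0.54 (edgeR adjusted p = 0.00588), and 1.36 ± 0.50 (adjusted p = 0.0406) without Dicretin 14. The cyclins that partner this kinase were not called. Ccna2, for cyclin A, stood at 3.96, 0.127, 0.203 and 0.606 CPM in the Dicretin libraries and at 1.35, 0.582, 0.953 and 1.07 CPM in saline. Its log2 fold change of 0.36 ± 0.77 (edgeR adjusted p = 0.748) became -1.70 ± 0.73 (adjusted p = 0.0755) without Dicretin 14, so neither value passed. Ccnb1 and Ccnb2, for the B-type cyclins, were below the count filter and had 145 and 136 counts in Dicretin 14. The other Dicretin libraries together held 3 counts of Ccnb1 and 12 of Ccnb2. Ccne2, a second cyclin E, was not called, at -0.08 ± 0.37 on the log2 scale (edgeR adjusted p = 0.888), nor without Dicretin 14 (-0.38 ± 0.38, adjusted p = 0.462).

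Cdkn1a encodes p21, which blocks cyclin-dependent kinases after stress or p53 activation. It stood at 43.0, 3.74, 15.3 and 49.2 CPM in Dicretin 14, 23, 64 and 65, and at 5.96, 4.01, 4.56 and 2.40 CPM in the saline libraries. Dicretin 14, 64 and 65 were above all saline libraries, and Dicretin 23 was inside their range. Over saline the gene rose by 2.70 ± 0.70 on the log2 scale (edgeR adjusted p = 0.00714), and 2.42 ± 0.77 (adjusted p = 0.0249) without Dicretin 14. Dicretin 65 held the highest Cdkn1a of all libraries, with Mki67 at 0. Dicretin 14 held the next highest Cdkn1a, with the highest Mki67, at 15.8 CPM. In Dicretin 23, which held the lowest Cdkn1a of its group, Mki67 was at 0.824 CPM. Cdkn3, a phosphatase acting on Cdk1, had 54 counts in Dicretin 14 and 0 in the other Dicretin libraries.

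Of the 8 S-phase, licensing and helicase genes, 4 fell after Dicretin (50%) and 0 rose, beside 19.2% lower and 17.5% higher over all genes. The median log2 fold change over the 8 was -0.91, and that over all genes -0.01. Against saline their median was -0.78 for Semaglutide, with 0 called beside 4.18% of all genes. For calorie restriction it was -0.64, with 1 called beside 7.53% of all genes. Dicretin called 0 of the 8 against calorie restriction (median -0.15), beside 31.3% of all genes. Compared with Semaglutide it also called 0 (median -0.17), beside 32% of all genes. E2f1, the transcription factor that opens S phase, stood at 2.84, 3.30, 1.56 and 0.433 CPM after Dicretin. In saline it stood at 4.44, 4.65, 5.17 and 4.96 CPM, with no overlap. The log2 fold change of Dicretin over saline was -1.21 ± 0.37 (edgeR adjusted p = 0.0149), and -1.39 ± 0.40 (adjusted p = 0.0109) without Dicretin 14. Here Dicretin 14 lay below the saline range like its group mates.

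The MCM genes encode the ring that unwinds DNA at replication forks. Mcm6 stood at 4.18, 2.85, 2.58 and 1.04 CPM after Dicretin and 7.47, 7.62, 4.49 and 4.63 CPM after saline, and the groups did not overlap. The log2 fold change was -1.16 ± 0.30 (edgeR adjusted p = 0.00567), and -1.45 ± 0.31 (adjusted p = 0.00136) without Dicretin 14. Mcm4 stood at 4.66, 2.79, 2.17 and 1.39 CPM after Dicretin, against 5.68, 7.68, 5.44 and 4.13 CPM after saline. Only Dicretin 14 reached into the saline range of Mcm4. On the log2 scale Mcm4 fell by 1.04 ± 0.31 (edgeR adjusted p = 0.0133), with 0.00135 without Dicretin 14 and 0.059 without saline 50. Mcm5 stood at 2.68, 0.761, 0.813 and 1.21 CPM after Dicretin and 4.27, 3.72, 2.11 and 2.90 CPM after saline. Again only Dicretin 14 overlapped saline, and the log2 fold change was -1.23 ± 0.39 (edgeR adjusted p = 0.0201). The Mcm5 call is lost without Dicretin 23 (adjusted p = 0.0679), Dicretin 64 (0.0611), saline 35 (0.0697) or saline 50 (0.0528). Without Dicretin 14 it was -1.80 ± 0.38 (adjusted p = 0.00131).

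Mcm3 was close to the threshold with all libraries, at -0.79 ± 0.32 on the log2 scale (edgeR adjusted p = 0.0611), and fell by 1.33 ± 0.26 without Dicretin 14 (adjusted p = 0.000742). Dicretin 14 held 6.48 CPM of it, and the other Dicretin libraries 1.49 to 3.03 CPM. Mcm2, Mcm7 and the licensing factor Cdt1 were not called, with log2 fold changes of 0.04 ± 0.35, 0.44 ± 0.22 and -0.01 ± 0.40 (edgeR adjusted p = 0.938, 0.135 and 0.988). Without Dicretin 14 these were -0.43 ± 0.33, 0.34 ± 0.23 and -0.63 ± 0.35, again not called (adjusted p = 0.322, 0.281 and 0.17). The summed level of the 8 genes was 49.4 CPM in Dicretin 14 and 20 to 33.7 CPM in the other Dicretin libraries, against 35.5 to 47.6 CPM in saline.

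At the replication fork, 2 of 4 genes rose after Dicretin (50%) and 0 fell, beside 17.5% higher and 19.2% lower over all genes. Pcna encodes the sliding clamp that holds DNA polymerases on their template. It stood at 70.0, 67.7, 76.2 and 78.4 CPM in the Dicretin libraries, and at 37.9, 39.7, 46.4 and 36.5 CPM in saline. All Dicretin libraries lay above every other library of the series, and Dicretin 14 was not among the higher ones. The log2 fold change was 0.86 ± 0.15 (edgeR adjusted p = 0.000282), and 0.90 ± 0.17 (adjusted p = 0.000479) without Dicretin 14. Rrm1, the large subunit of ribonucleotide reductase, rose likewise. It stood at 31.9, 21.1, 26.0 and 18.8 CPM after Dicretin and 12.9, 12.6, 11.8 and 10.3 CPM after saline, again with no overlap. Its log2 fold change was 1.04 ± 0.17 (edgeR adjusted p = 0.000112), and 0.90 ± 0.16 (adjusted p = 0.00029) without Dicretin 14. Every alternative fit and every omitted library left Pcna and Rrm1 called in this comparison.

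The small subunit of the same enzyme was not called with all libraries. Rrm2, the subunit whose level is known to follow S phase, stood at 7.29, 1.97, 2.17 and 2.60 CPM after Dicretin and 6.41, 7.85, 3.33 and 6.29 CPM after saline. The log2 fold change was -0.75 ± 0.37 (edgeR adjusted p = 0.121), and -1.40 ± 0.31 (adjusted p = 0.00174) without Dicretin 14, which was the only Dicretin library inside the saline range. Tyms, for thymidylate synthase, was not called against saline, at -0.22 ± 0.19 (edgeR adjusted p = 0.366), nor without Dicretin 14 (-0.22 ± 0.20, adjusted p = 0.427).

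The mitotic kinases, checkpoint and exit genes summed to 32.6 CPM in Dicretin 14 and to 4.61 to 7.16 CPM in the other Dicretin libraries, against 3.89 to 7.08 CPM in saline. Aurka, the kinase of spindle poles, was the only called gene of the 3 tested here. It stood at 11.6, 4.50, 2.98 and 3.03 CPM after Dicretin and 2.25, 2.85, 3.06 and 1.99 CPM after saline. Dicretin 14 and 23 were above all saline libraries, and Dicretin 64 and 65 were inside their range. The log2 fold change was 1.14 ± 0.36 (edgeR adjusted p = 0.0198), and 0.48 ± 0.27 (adjusted p = 0.163) without Dicretin 14. The call is also lost without saline 35 (0.0539) or saline 78 (0.0536).

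Bub1b and Birc5, for a checkpoint kinase and the survivin subunit of the chromosomal passenger complex, were not called (edgeR adjusted p = 0.484 and 0.395). Their log2 fold changes were 0.62 ± 0.65 and 0.68 ± 0.60, and -0.36 ± 0.66 and -0.60 ± 0.51 without Dicretin 14 (adjusted p = 0.702 and 0.372). Dicretin 14 held 2.52 CPM of Bub1b and 5.41 CPM of Birc5, and its group mates 0.444 to 0.606 and 0.520 to 1.21 CPM. The untested genes of this role had few counts outside Dicretin 14. Cdc20, which activates the anaphase-promoting complex, had 137 counts there and 9 in the other Dicretin libraries together. Plk1, a master kinase of mitosis, had 68 counts there and 5 in the others. Aurkb, the passenger complex kinase, and Bub1, the checkpoint kinase at kinetochores, had 22 and 16 counts there, and 9 and 5 in the others. All 4 genes were thus near the floor in 3 of 4 Dicretin libraries.

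The spindle and kinetochore genes summed to 30.1 CPM in Dicretin 14 and to 1.69 to 3.87 CPM in the other Dicretin libraries, against 3.23 to 5.28 CPM in saline. No member was called, and the 3 tested ones had log2 fold changes of 0.72 ± 0.48 for the motor Kif11, 2.09 ± 1.01 for the cytokinesis motor Kif20a and 0.04 ± 0.67 for Nusap1 (edgeR adjusted p = 0.252, 0.113 and 0.966). Without Dicretin 14 the same values were -0.16 ± 0.41, -0.24 ± 0.96 and -1.24 ± 0.66 (adjusted p = 0.782, 0.864 and 0.151). For Kif20a, 29.3% of exon bases overlap a gene on the opposite strand. Tpx2, which builds spindle microtubules, had 149 counts in Dicretin 14 and 13 in its mates together. Cenpe and Cenpf, both of the kinetochore, had 81 and 89 counts there, and 6 and 5 in the mates. With no filter on low counts, none of the 10 members that the filter removed was called in any comparison, and their lowest edgeR adjusted p against saline was 0.13, for Ccnb2.

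**Figure D3:**
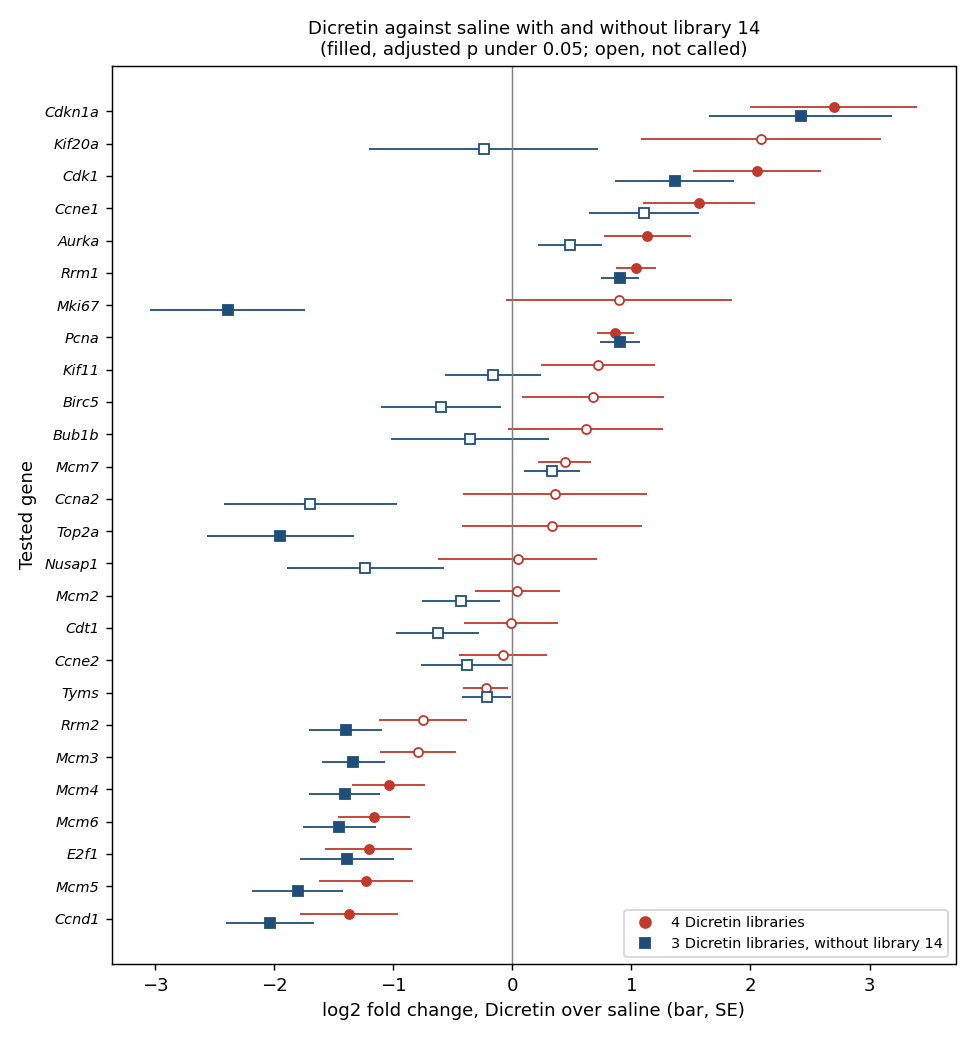
Log2 fold change of each tested member, Dicretin over saline, with all libraries and without Dicretin 14; filled points have an adjusted p under 0.05 and bars are the SE. Mki67, Top2a, Ccna2, Kif11, Kif20a, Birc5, Bub1b, Nusap1 and Mcm2 change sign. Mcm3, Mcm4, Mcm5, Mcm6 and Rrm2 move further down, Mcm7 stays positive, and Pcna and Rrm1 stay nearly in place.

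Semaglutide changed 0 of the 26 tested members against saline, where 4.18% of all genes were called, 1.56% higher and 2.62% lower. At an unadjusted p under 0.05 there were 7 members, against 18.7% of all genes, and limma-voom and the DESeq2 Wald test also called 0. All Semaglutide libraries lay below all saline libraries for 7 members, namely Mki67, Cdkn1a, E2f1, Mcm3, Mcm6, Kif11 and Nusap1, and above them for 0. Over all genes, 7.75% lay below and 6.42% above in this way. The median log2 fold change was -0.40 over the tested members and 0 over all genes. Mcm3 stood at 2.33, 3.38, 3.82 and 3.76 CPM in Semaglutide 11, 15, 31 and 51, against 5.62, 6.80, 5.65 and 5.38 CPM in saline. Between these groups the log2 fold change was -0.82 ± 0.32 (edgeR adjusted p = 0.168), and it was called without Dicretin 14, which enters the shared spread (-0.80 ± 0.23, adjusted p = 0.0459). E2f1 stood at 2.1, 2.97, 3.76 and 2.57 CPM after Semaglutide, all below saline, with -0.75 ± 0.36 on the log2 scale (edgeR adjusted p = 0.27). Mki67 stood at 0.750, 0.483, 0.778 and 0.689 CPM, also below every saline library, with -1.78 ± 1.08 (edgeR adjusted p = 0.399). These values do not pass the test, and it does not show that the levels were alike.

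Pcna and Rrm1 did not follow Semaglutide as they did Dicretin. Pcna stood at 62.4, 39.8, 41.5 and 34.2 CPM, so that Semaglutide 11 alone lay above the saline range, with a log2 fold change of 0.15 ± 0.15 (edgeR adjusted p = 0.646). Rrm1 stood at 11.3, 9.39, 13.5 and 11.9 CPM, with -0.05 ± 0.17 (edgeR adjusted p = 0.915). Cdkn1a stood at 1.65, 0.967, 1.10 and 1.69 CPM, below every saline library, with -1.65 ± 0.78 (edgeR adjusted p = 0.27). Fitted with the 2 groups alone, the Cdkn1a difference was called (adjusted p = 0.0147).

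All comparisons with saline share its libraries and are not separate results. Calorie restriction changed 1 of the 26 tested members against saline, where 7.53% of all genes were called, 3.42% higher and 4.11% lower. The gene was E2f1, which stood at 2.34, 1.60, 1.78 and 2.47 CPM in calorie-restricted 7, 8, 52 and 79, all below the saline libraries. Its log2 fold change was -1.22 ± 0.37 (edgeR adjusted p = 0.048). The call lies at the threshold and is lost when any of 12 single libraries is left out, with adjusted p up to 0.122, while the log2 fold change stayed between -1.32 and -1.13. Calorie-restricted libraries lay below all saline libraries for 5 members (E2f1, Mcm3, Mcm5, Mcm6 and Rrm1) and above for 0, against 11.9% and 11% of all genes. The median log2 fold change was -0.55 over tested members and -0.01 over all genes, and 4 members had an unadjusted p under 0.05, against 23.2% of all genes. Mcm6 stood at 3.74, 3.36, 3.40 and 3.07 CPM, with -0.84 ± 0.30 on the log2 scale (edgeR adjusted p = 0.0928), and was called when the 2 groups were fitted alone (0.0176). Mki67 was at 0.601 to 1.22 CPM and Top2a at 0.687 to 1.27 CPM, with log2 fold changes of -1.36 ± 1.04 and -0.98 ± 0.81 (edgeR adjusted p = 0.474 and 0.511). Kif20a was high in a single calorie-restricted library, at 4.71 CPM in calorie-restricted 52 and 0.468 to 0.759 CPM in the rest.

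Set against calorie restriction, Dicretin changed 6 of the 26 tested members, 5 higher and 1 lower, where 31.3% of all genes were called, 15.1% higher and 16.2% lower. Cdk1 stood at 9.86, 2.28, 3.46 and 2.69 CPM after Dicretin and 0.934, 0.229, 0.628 and 0.200 CPM in calorie restriction, a log2 fold change of 3.14 ± 0.58 (edgeR adjusted p = 0.000509). Ccne1 was at 1.47 to 6.11 CPM after Dicretin and 0.267 to 0.995 CPM in calorie restriction, with 2.48 ± 0.50 (edgeR adjusted p = 0.000991). Without Dicretin 14 these were 2.43 ± 0.53 and 2.0 ± 0.49, both still called (adjusted p = 0.00216 and 0.00437). Both genes, with Pcna and Rrm1, are the 4 members whose Dicretin libraries all lay above all calorie-restricted libraries, against 13.2% of all genes. No member lay wholly below, against 15.2% of all genes.

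Pcna stood at 36.2, 36.2, 37.3 and 36.2 CPM in the calorie-restricted libraries, and the log2 fold change of Dicretin over them was 1.0 ± 0.16 (edgeR adjusted p = 9.11e-05). Rrm1 stood at 10.28, 10.01, 9.53 and 9.49 CPM, with 1.32 ± 0.17 (edgeR adjusted p = 1.3e-05). Their levels in calorie restriction were thus close together, and both calls held without Dicretin 14 (adjusted p = 0.000192 and 2.9e-05). Cdkn1a stood at 1.93, 2.14, 6.23 and 14.6 CPM in calorie restriction, which overlaps Dicretin. Its log2 fold change of 2.16 ± 0.68 (edgeR adjusted p = 0.0249) was not called without Dicretin 14 (0.0712), Dicretin 65, calorie-restricted 7 or calorie-restricted 8. Ccnd1 stood at 17.5, 12.1, 20.1 and 10.5 CPM in calorie restriction, with -1.21 ± 0.41 for Dicretin (edgeR adjusted p = 0.033), and -1.89 ± 0.37 without Dicretin 14 (adjusted p = 0.000877). That call is lost without Dicretin 23, Dicretin 64, Dicretin 65, calorie-restricted 7 or calorie-restricted 52. Mcm3 and Mcm4 fell without Dicretin 14 (adjusted p = 0.0126 and 0.0448), and so did Kif20a (0.0324), which was at 4.71 CPM in calorie-restricted 52. In that fit 8 members were called, with 33.8% of all genes.

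Against Semaglutide, Dicretin changed 7 of the 26 tested members, 6 higher and 1 lower, where 32% of all genes were called, 14.8% higher and 17.1% lower. Without Dicretin 14 there were again 7, but 4 higher and 3 lower, with 28.9% of all genes called in either direction. Cdkn1a had the largest fold of these 7, with 3.74 to 49.2 CPM after Dicretin and 0.967 to 1.69 CPM after Semaglutide, and a log2 fold change of 4.35 ± 0.79 (edgeR adjusted p = 0.000601). The groups did not overlap, and without Dicretin 14 the value was 4.06 ± 0.85 (adjusted p = 0.003). Rrm1 and Pcna were higher by 1.09 ± 0.17 and 0.72 ± 0.15 on the log2 scale (edgeR adjusted p = 8.49e-05 and 0.00162), and by 0.93 ± 0.16 and 0.74 ± 0.17 without Dicretin 14 (adjusted p = 0.000254 and 0.00302). Semaglutide 11, at 62.4 CPM of Pcna, came nearest to the lowest Dicretin library at 67.7 CPM. Aurka had 1.43 ± 0.37 (edgeR adjusted p = 0.00616), and 0.77 ± 0.27 without Dicretin 14 (adjusted p = 0.0397). The Aurka call is lost when Semaglutide 11 is left out as well (0.0756). Cdk1 and Kif11 had 1.61 ± 0.52 and 1.84 ± 0.52 (edgeR adjusted p = 0.0246 and 0.0106), and neither was called without Dicretin 14 (0.186 and 0.109). The Cdk1 call is also lost without Semaglutide 15 (0.0697), 31 (0.0503) or 51 (0.0507).

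Tyms fell in this comparison. It stood at 12.2, 12.9, 11.2 and 11.5 CPM after Dicretin and 24.5, 16.6, 22.7 and 15.96 CPM after Semaglutide, without overlap, and the log2 fold change was -0.74 ± 0.19 (edgeR adjusted p = 0.00502). Without Dicretin 14 it was -0.75 ± 0.20 (adjusted p = 0.00991). The members whose Dicretin libraries all lay above all Semaglutide libraries were 5 (Cdkn1a, Mcm2, Pcna, Rrm1 and Aurka), and Tyms was the 1 below, against 12% and 14.2% of all genes. Ccnd1 was not called with all libraries (-1.07 ± 0.41, edgeR adjusted p = 0.0562) and fell without Dicretin 14 (-1.74 ± 0.37, adjusted p = 0.00168). Rrm2 likewise was called without it (-0.95 ± 0.31, adjusted p = 0.027).

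Semaglutide against calorie restriction changed 0 of the 26 tested members, where 6.12% of all genes were called, 3.05% higher and 3.07% lower. At an unadjusted p under 0.05 there were 3 members, against 23.2% of all genes. Limma-voom called 0 and the DESeq2 Wald test 1. Semaglutide libraries lay below all calorie-restricted ones for Cdkn1a and Aurka and above them for 0 members, against 8.13% and 7.45% of all genes.

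Other genes of the cycle were read from 8 lists. Among 18 further cyclins, kinases and their phosphatases, Dicretin raised 2 and lowered 2 of 16 tested genes against saline (12.5% each). Over all genes, 17.5% were higher and 19.2% lower. Wee1, the kinase that holds Cdk1 inactive, averaged 1.01 ± 0.42 CPM after Dicretin and 13.7 ± 1.9 CPM after saline (SD, n = 4 each), with a log2 fold change of -3.72 ± 0.38 (edgeR adjusted p = 7.41e-07). Cdk6, a partner of D-type cyclins, averaged 5.67 ± 1.66 and 26.4 ± 4.2 CPM, with -2.21 ± 0.25 (edgeR adjusted p = 2.13e-06). Ccnd3, for cyclin D3, and Cdc25a, the phosphatase that frees cyclin-dependent kinases, rose by 1.07 ± 0.20 and 1.31 ± 0.36 (edgeR adjusted p = 0.000338 and 0.00824). These 4 calls held in every alternative, and Wee1 was lower in 4 of 4 Dicretin libraries. Against the fall of Ccnd1, Ccnd3 averaged 51.4 ± 15.2 CPM after Dicretin and 24.5 ± 2.8 CPM after saline.

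Of 6 further kinase inhibitors, 4 were tested and, beside 17.5% of all genes, 1 rose (25%). That was Cdkn2c, which binds Cdk4 and Cdk6, with 1.10 ± 0.26 on the log2 scale (edgeR adjusted p = 0.00279). Among 15 tested E2F, retinoblastoma and DREAM regulators, 3 rose (20%) and 1 fell (6.67%), beside 17.5% higher and 19.2% lower over all genes. Tfdp2, an E2F dimer partner, and E2f5, a repressor E2F, rose by 1.12 ± 0.23 and 0.89 ± 0.21 (edgeR adjusted p = 0.000948 and 0.00287). Lin52 and Rb1 had 0.57 ± 0.19 and -0.54 ± 0.17 (edgeR adjusted p = 0.0267 and 0.0185). The call of Lin52 is lost without Dicretin 14, saline 35 or saline 78, and that of Rb1 without saline 50 or saline 73.

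In the wider list of fork and deoxynucleotide genes, Dicretin against saline called 10 of 27 tested genes lower (37%) and 2 higher (7.41%), beside 19.2% and 17.5% over all genes, and 15 were not called. The median log2 fold change of the list was -0.60, and that of all genes -0.01. Pola1, the catalytic subunit of DNA polymerase alpha, averaged 1.16 ± 0.27 CPM after Dicretin and 3.62 ± 0.29 CPM after saline, with -1.62 ± 0.24 (edgeR adjusted p = 4.54e-05). Rpa1, which coats single-stranded DNA, fell by 0.69 ± 0.14 (edgeR adjusted p = 0.000637). Prim1, the primase of the same polymerase, rose by 1.23 ± 0.21 (edgeR adjusted p = 0.000173), and Chaf1b, of the chromatin assembly factor at forks, rose by 2.28 ± 0.42 (edgeR adjusted p = 0.000338). Without Dicretin 14 the list had 2 risen and 9 fallen, with 36.8% of all genes called in either direction, a share not split by direction here. Pcna and Rrm1 thus stood beside Prim1 and Chaf1b as the fork genes that rose. The 15 tested licensing and firing genes gave 2 risen (13.3%) and 1 fallen (6.67%), and 0 without Dicretin 14. Dbf4, the activator of the origin-firing kinase Cdc7, had 1.27 ± 0.42 (edgeR adjusted p = 0.0248), and 0.49 (adjusted p = 0.24) without Dicretin 14. The Dbf4 call is also lost without saline 35 or saline 50.

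Among 24 tested mitosis and cytokinesis genes, 3 rose (12.5%) and 1 fell (4.17%) against saline, beside 17.5% higher and 19.2% lower over all genes. Without Dicretin 14 there were 2 risen and 6 fallen, with 36.8% of all genes called in either direction, a share not split by direction here. Stmn1, which destabilizes microtubules, rose by 1.18 ± 0.26 (edgeR adjusted p = 0.00142), and Spc24, of the kinetochore, fell by 1.25 ± 0.28 (edgeR adjusted p = 0.00198). Bub3, a checkpoint protein, had 0.40 ± 0.13 (edgeR adjusted p = 0.0189), a call that is lost without saline 35. Dicretin 14 was the highest of the 16 libraries for 29 of the 42 listed mitosis genes with a count (69%). The same share was 13.8% for the wider fork list, 31.6% for licensing, 27.8% for further cyclins and kinases, 38.9% for E2F and DREAM regulators, 35.3% for p53 targets, 14.3% for mitogen genes and 0 of 6 for the kinase inhibitors.

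**Figure D4:**
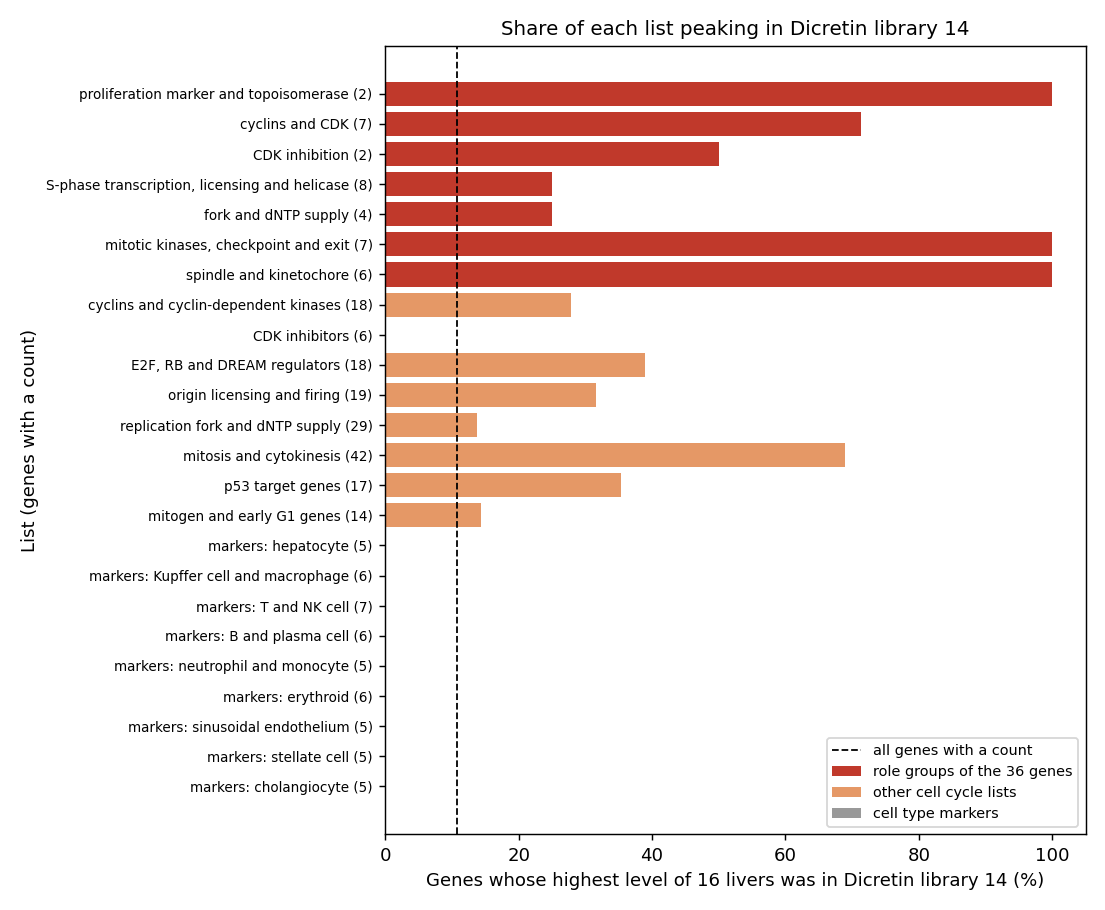
Share of each gene list, in percent of its genes with a count, for which Dicretin 14 had the highest CPM of the 16 libraries; the dashed line is the share over all genes with a count, 10.8%. The mitotic, spindle and cyclin groups lie far above the line, and every cell type marker list is at 0.

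Of 17 p53 target genes, 4 rose (23.5%) and 3 fell (17.6%) after Dicretin, beside 17.5% higher and 19.2% lower over all genes. Plk3, a stress-induced kinase, averaged 361.9 ± 22.4 CPM after Dicretin and 42.6 ± 19.3 CPM after saline, with 3.08 ± 0.47 on the log2 scale (edgeR adjusted p = 0.000103). Btg2, an antiproliferative gene, and Trp53inp1 rose by 2.29 ± 0.21 and 1.79 ± 0.22 (edgeR adjusted p = 2.22e-07 and 5.79e-06). Sesn1, a stress-responsive target of p53, fell by 1.08 ± 0.18 (edgeR adjusted p = 0.000147). The median of the list was -0.11, so its genes did not move together, and Cdkn1a rose beside Plk3, Btg2 and Trp53inp1. Among 13 tested mitogen and early cycle genes, Met, the receptor of hepatocyte growth factor, and Ccn1, a target of YAP, fell by 1.36 ± 0.16 and 1.46 ± 0.25 (edgeR adjusted p = 3.38e-06 and 0.000167). Myc had 1.26 ± 0.46 (edgeR adjusted p = 0.0374), and that call is lost without Dicretin 14, Dicretin 65, saline 50, saline 73 or saline 78.

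Against saline, Semaglutide changed 3 of the 131 tested genes of the 8 lists (2.29%; Cdk6 and Btg2 lower, Prim1 higher), beside 4.18% of all genes. Calorie restriction changed 9 of 131 (6.87%), all lower, beside 7.53% of all genes. Counting calls in either direction, neither share exceeds that over all genes. In the lower direction alone, the 6.87% for calorie restriction lies above the 4.11% of all genes. In the higher direction it called 0 of the 131, beside 3.42% of all genes. In calorie restriction, Gins4, of the helicase activator, Gmnn, for the licensing inhibitor geminin, and Mcm8 fell by 0.70 ± 0.18, 0.80 ± 0.24 and 1.23 ± 0.36 (edgeR adjusted p = 0.0236, 0.0446 and 0.0464). The kinetochore gene Spc25 fell by 1.04 ± 0.28 (edgeR adjusted p = 0.0304). Each of these 4 calls is lost when any of 6 to 11 single libraries is left out.

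Markers of the liver's cell types were read beside these results. Hepatocyte markers summed to 72680 to 90750 CPM in the Dicretin libraries (81020 in Dicretin 14), 111300 to 139400 in Semaglutide, 118900 to 138600 in calorie restriction and 90700 to 110300 in saline. Most of this sum is Alb, for albumin, and the 5 markers did not go one way. After Dicretin against saline Alb fell by 0.45 ± 0.15 on the log2 scale (edgeR adjusted p = 0.0222), while Cps1, of the urea cycle, and the transcription factor Hnf4a rose by 1.55 ± 0.17 and 0.82 ± 0.19 (edgeR adjusted p = 1.6e-06 and 0.00274). Cholangiocyte markers summed to 28.5 to 49.8 CPM in Dicretin (39.7 in Dicretin 14), 35.1 to 93.0 in Semaglutide, 40.3 to 66.6 in calorie restriction and 63.1 to 81.3 in saline. All Dicretin libraries thus lay below all saline libraries for this sum, all 5 markers had negative log2 fold changes, and 1, Spp1, was called (-0.89 ± 0.26, edgeR adjusted p = 0.011).

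Kupffer cell and macrophage markers summed to 105.8 to 304.9 CPM in Dicretin (155.8 in Dicretin 14), 54.2 to 157.9 in Semaglutide, 35.8 to 107.4 in calorie restriction and 109.4 to 163.5 in saline. Against calorie restriction, Dicretin had 4 of 6 macrophage markers called higher and 0 lower (median log2 fold change 1.21), beside 15.1% of all genes higher. Compared with Semaglutide, 1 of 6 was called higher and 0 lower (median 0.95), beside 14.8%. The Dicretin and saline ranges overlap, and 0 of 6 macrophage markers were called between them, also 0 at an unadjusted p under 0.05. The other marker sums overlapped between Dicretin and saline as well. Stellate cell markers summed to 171.7 to 230.2 CPM in Dicretin and 195 to 292 in saline, endothelial markers to 83.2 to 160 and 99.5 to 127.9, and erythroid markers to 211.2 to 383.6 and 278.4 to 401.5. T and NK cell markers summed to 1.71 to 5.28 CPM in Dicretin and 3.14 to 5.11 in saline, B and plasma cell markers to 4.02 to 9.28 and 5.62 to 9.59, and neutrophil and monocyte markers to 3.54 to 7.19 and 3.78 to 9.55. Of the tested markers in these lists, Lyve1 of the endothelium rose, and Pdgfrb of stellate cells, Hba-a1 and Hba-a2 of erythroid cells and Trac of T cells fell (edgeR adjusted p = 0.00213, 0.0202, 0.0411, 0.0283 and 0.0192). Hba-a1 and Hba-a2 are near-identical copies, so their split of reads is uncertain. Among its group, Dicretin 14 had the highest erythroid sum, at 383.6 CPM, and the lowest sums for B and plasma cells and for neutrophils and monocytes, at 4.02 and 3.54 CPM. Of the 50 listed markers with a count, it was the highest of 16 libraries for 0, and Ly6g alone was at 0 in all libraries. The part of the hepatocyte, cholangiocyte and macrophage markers in the changes of Pcna, Rrm1 and the helicase genes was not tested.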

How the data were processed

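Liver messenger RNA was sequenced in 16 libraries, 4 per group. Libraries were poly(A)-selected and directional, per the labels' protocols. Reads were aligned to mm10, with TopHat2 2.1.1 and featureCounts as the named tools, per the submitters' processing notes. Annotation and strand setting are not given in the sources used here. The deposited values are raw read counts per gene, which the authors did not normalize.

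The analysis ran in edgeR 4.0.16 under R 4.3.3. Genes were kept by filterByExpr at its defaults (12910 of 46078), scaled by TMM, and fitted with glmQLFit (robust) as 1 mean per group over all libraries. Each of the 6 contrasts used glmQLFTest, with Benjamini-Hochberg adjustment over all genes tested and a threshold of 0.05. The fit was tested on simulated data. CPM use TMM-scaled totals. The SE is the log2 fold change divided by the square root of F.

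Members, lists, tests and alternatives were chosen with earlier results of these data known. Named genes are members called in any contrast, 8 fixed members, and up to 4 called genes with the smallest p per list. Exon overlaps and lengths came from GENCODE M21 (GRCm38), and promoters from RefSeq. Alternatives were DESeq2 1.42.0 size factors and Wald test, upper quartile factors, limma-voom (limma 3.58.1), 2 other filters, fits without the 20 top genes, pairwise fits of 2 groups, and libraries left out. Library totals of 12.144 to 18.755 M leave most mitotic genes with few counts. Numbers in the titles are not shared between groups, so nothing is paired.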

Additional observations from a re-analysis of the deposited data

Results flagged for a closer look

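Among 180 sets of 4 libraries (each member, and each sum over members, within a group), 32 had a highest library whose gap to the next took up more of the whole range than Dixon's critical value for 4 values allows. For normally distributed values, which low CPM may not be, chance gives such a gap at either end, highest or lowest, in about 1 in 20 sets. The sets also share libraries. Of the 32, 25 were Dicretin 14, including 19 of the 24 found for single genes in 144 sets.

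In Dicretin 14 the mitotic-wave genes with such a gap were Mki67 at 15.8 CPM, Top2a at 6.91, Ccna2 at 3.96, Ccnb1 at 7.77, Ccnb2 at 7.29, Cdk1 at 9.86 and Cdkn3 at 2.89 CPM. The kinase and checkpoint genes were Aurkb at 1.18 CPM, Plk1 at 3.64, Bub1b at 2.52, Cdc20 at 7.34 and Birc5 at 5.41 CPM. The spindle genes were Cenpe at 4.34 CPM, Cenpf at 4.77, Kif20a at 4.87 and Tpx2 at 7.98 CPM. Ccnd1 at 13.6 CPM, Mcm2 at 7.82 and Rrm2 at 7.29 CPM completed the single genes. The other Dicretin libraries reached at most 0.824 CPM for Mki67, 0.127 for Ccnb1, 0.380 for Cdc20 and 4.57 for Ccnd1.

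Summed levels separated Dicretin 14 in the same way. All 36 members summed to 353.7 CPM there and to 167.2 to 198.5 CPM in the other Dicretin libraries, and 34 members without Ccnd1 and Cdkn1a to 297.2 and 145 to 158.9 CPM. Mki67 with Top2a summed to 22.7 CPM (0.346 to 1.59 in the others), the cyclins with Cdk1 to 51.8 CPM (10.03 to 13.5), the mitotic kinases to 32.6 CPM (4.61 to 7.16) and the spindle genes to 30.1 CPM (1.69 to 3.87).

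In the other groups, Top2a was at 1.27 CPM in calorie-restricted 79 and 0.687 to 0.733 in its mates. Pcna was at 37.3 CPM in calorie-restricted 52 and 36.2 in its mates, a gap of about 1 CPM in a very narrow group. Kif20a was at 4.71 CPM in calorie-restricted 52 and 0.468 to 0.759 in its mates, and the spindle sum in the same library was 7.69 CPM against 2.83 to 3.45. The sum of 34 members was 117.7 CPM in calorie-restricted 8 and 113.2 to 113.6 in its mates. Cenpf was at 0.877 CPM in Semaglutide 51 and 0.138 to 0.259 in its mates, and Tyms was at 17.3 CPM in saline 73 and 12.6 to 13.0 in its mates.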

How the results depend on the processing

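The count of called members stayed within 1.5 times under each other setting for Dicretin against saline, calorie restriction and Semaglutide. Against saline, calorie restriction gave 2 calls by the DESeq2 Wald test, 0 with no filter on low counts, 4 with only the 2 groups compared and 3 without Semaglutide 11 and Dicretin 14, against 1 in the report. Semaglutide gave 2 with only the 2 groups compared, and Semaglutide against calorie restriction gave 1 by the Wald test. Leaving out each library in turn gave 9 to 13 calls for Dicretin against saline, 5 to 12 against calorie restriction and 6 to 16 against Semaglutide. It gave 0 to 2 for calorie restriction and 0 to 1 for Semaglutide against saline, and 0 to 1 for Semaglutide against calorie restriction. These fits tested 26 to 33 members, since the count filter follows the smallest group. For Dicretin against calorie restriction or Semaglutide, the count moved by more than 1.5 times without Dicretin 23, 64 or 65. Against Semaglutide it also moved without saline 78. The shares of all genes called in these fits and in the other settings above are not given here. These counts are therefore not read as results about the members. With no filter, Dicretin 14 was the highest library for 25 of 36 members (69.4%), beside 11.6% of 23501 genes. For lists of other genes, leaving out Dicretin 14 was chosen after seeing the data. In Dicretin against saline, origin licensing then went to 0 calls and mitosis to 8, where 36.8% of all genes were called.

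Signs reversed in Dicretin against saline by limma-voom for Mki67 (log2 fold change -1.20), Top2a (-0.85) and Ccna2 (-0.71), and without Semaglutide 11 and Dicretin 14 for Mki67 (-2.41), Top2a (-1.97), Ccna2 (-1.72) and Kif11 (-0.18). Leaving out each library in turn gave -2.39 (without Dicretin 14) to 1.29 for Mki67, -1.95 to 0.72 for Top2a, -1.70 to 0.75 for Ccna2 and -0.16 to 1.0 for Kif11. In Semaglutide against saline it gave -0.058 (without Semaglutide 11) to 0.26 for Pcna and -0.12 to 0.042 (without Semaglutide 15) for Rrm1. Pcna was -0.061 without Semaglutide 11 and Dicretin 14. In calorie restriction against saline it gave -0.003 (without calorie-restricted 8) to 0.28 for Tyms and -0.29 (without calorie-restricted 79) to 0.85 for Cdkn1a. Without Dicretin 14 the signs of Kif20a, Birc5, Bub1b, Nusap1 and Mcm2 turned as well, none of them called. Of the genes above, Mki67 and Top2a were called, lower, in both fits without Dicretin 14. These fits share the omission of a library singled out by these same genes, so they are not separate support. The cause of the reversed signs was not tested. With no filter on low counts, Ccnd1 in Dicretin against saline (adjusted p = 0.0726) and against calorie restriction (0.126), Cdkn1a in Dicretin against calorie restriction (0.0811) and E2f1 in calorie restriction against saline (0.057) lost their calls. With only the 2 groups compared, so did Aurka against saline (0.0518), Cdkn1a against calorie restriction (0.116), and Cdk1 and Kif11 against Semaglutide (0.0594 and 0.0575). No paired analysis was possible because the labels share no replicate number between groups. Depth limits the 10 members below the filter on low counts.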
